A study of Homo sapiens with 27 samples.

Results

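The genes described here encode the canonical histones and lie in the histone gene clusters. They were taken as the rows of the deposited table whose symbol starts with HIST1H, HIST2H, HIST3H or HIST4H and that reached 10 normalised reads in 3 or more of the 27 libraries. Of 72 such rows among 23228 genes, 43 met this minimum and 29 did not, 9 of them being listed at 0 in every library. The same minimum was met by 15295 rows of the whole table. The 43 genes comprised 4 of 6 H1 rows, 10 of 17 H2A rows, 13 of 20 H2B rows, 8 of 14 H3 rows and 8 of 15 H4 rows. By cluster, 35 belonged to HIST1, 5 to HIST2, 2 to HIST3 and 1 to HIST4.

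RNA was sequenced from DU145-DR, 22Rv1-DR and ARCaPM-DR, sublines of human castration-resistant prostate cancer cell lines that the labels all class as Ch-CRPC. In each line cells carried a control short hairpin RNA or one of 2 hairpins against the transcription factor GATA2, shGATA2a or shGATA2b, with 3 replicates per group. All 9 groups were thus hairpin-expressing cancer cells in culture, and no untreated parental line was among them. The labels give neither the hairpin sequences nor the time after induction, and do not say whether a subline is a single clone or whether replicates were separate cultures, which leaves the p-values resting on a spread between libraries that may be technical.

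Nucleosomes wrap DNA around an octamer of the core histones H2A, H2B, H3 and H4, and the linker histone H1 binds where the DNA enters and leaves. Most cluster genes are transcribed in S phase, when new DNA must be packaged, from promoters with TATA and CCAAT boxes and subtype-specific elements, with NPAT as a shared coactivator. Their mRNAs typically end in a stem-loop bound by SLBP in place of a poly(A) tail, and some cluster genes also make polyadenylated transcripts, described mostly in cells that have left the cell cycle. The sources used here do not say how RNA was selected for these libraries, so a level below can depend on how much of a gene's RNA carried a tail.

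Promoter sequences show what the genes that the results turn on share. RefSeq promoters (GRCh38.p14) were matched for 37 of the 43 genes. The letters TATAAA occurred on either strand within 250 bases upstream of the start in 22 of 37, or 59.5%, against 11.1% of all 27305 RefSeq promoters. CCAAT occurred in 33 of 37, or 89.2%, against 33%, and was found in 2 of 6 H4 promoters and in every matched promoter of the other types. The octamer ATTTGCAT, bound by POU-domain factors, occurred in 14 of 37, or 37.8%, against 1.7%: in 7 of 10 H2A, 6 of 10 H2B and 1 of 7 H3 promoters and in 0 of 4 H1 and 0 of 6 H4 promoters. Windows of H2A and H2B genes that start close together on opposite strands overlap, so 1 match can count for both genes. The octamer of HIST1H2BJ, at -47, also lies in the window of HIST1H2AG, whose start is 248 bases away. The 14 are therefore not 14 separate sites. Within 150 bases of the start, HIST1H2AC and HIST1H2AM alone among the H2A genes had the octamer. The GATA letters AGATAA or TGATAA occurred in 2 of 37, or 5.4%, against 14.9%. A match is a description of letters, not a site, and a window without one says nothing about factor binding. The 150 bases before the start of 6 genes follow, 5′ to 3′ on the gene's strand, with the letters of these 3 motifs (TATA, CCAAT and octamer), on either strand, in capitals. The first 4 are those whose knockdown effect differed between lines, HIST1H2BJ rose in DU145-DR, and HIST1H4H is an H4 promoter without these letters.
HIST1H2BK (chr6:27146859-27147008, minus strand): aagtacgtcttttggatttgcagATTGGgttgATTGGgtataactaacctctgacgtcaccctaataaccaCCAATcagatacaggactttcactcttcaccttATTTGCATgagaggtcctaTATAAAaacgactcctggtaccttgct
HIST2H2BE (chr1:149886683-149886832, minus strand): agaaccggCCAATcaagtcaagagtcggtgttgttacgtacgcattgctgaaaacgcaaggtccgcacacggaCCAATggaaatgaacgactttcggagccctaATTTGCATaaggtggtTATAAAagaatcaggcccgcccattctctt
HIST1H2AC (chr6:26124022-26124171, plus strand): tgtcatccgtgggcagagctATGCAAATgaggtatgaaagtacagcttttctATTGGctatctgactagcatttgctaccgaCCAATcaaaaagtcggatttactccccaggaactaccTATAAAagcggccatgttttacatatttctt
HIST1H1C (chr6:26056471-26056620, minus strand): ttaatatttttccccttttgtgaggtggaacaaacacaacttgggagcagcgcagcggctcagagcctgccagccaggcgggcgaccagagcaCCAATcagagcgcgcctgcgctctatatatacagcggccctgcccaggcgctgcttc
HIST1H2BJ (chr6:27132796-27132945, minus strand): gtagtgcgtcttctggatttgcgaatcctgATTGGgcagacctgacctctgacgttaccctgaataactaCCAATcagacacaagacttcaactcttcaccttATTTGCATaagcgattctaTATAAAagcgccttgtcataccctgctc
HIST1H4H (chr6:26285535-26285684, minus strand): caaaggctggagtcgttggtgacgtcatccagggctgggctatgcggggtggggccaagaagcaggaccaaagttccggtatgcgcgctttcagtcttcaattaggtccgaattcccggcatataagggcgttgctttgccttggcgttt

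Counting back from the start, the octamer began at -46 in HIST1H2BK, -46 in HIST2H2BE and -47 in HIST1H2BJ, each ahead of TATAAA at -27, -30 and -28. In HIST1H2AC it lay farther upstream, at -130. HIST1H1C had a CCAAT at -57 and neither TATAAA nor the octamer in this stretch.

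The histone stem-loop letters, searched as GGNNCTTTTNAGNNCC on the sense strand of GENCODE v29 transcripts, were present in 22 of the 43 genes. They occurred in 52 of 19669 protein-coding gene names, or 0.26%, of which 31 were HIST genes. Absence is uninformative, because many annotated histone transcripts stop at the coding end. The stem-loop in its context is shown for 5 genes, with the 16 searched letters in capitals.
HIST1H2AC: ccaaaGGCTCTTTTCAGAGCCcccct
HIST2H2BE: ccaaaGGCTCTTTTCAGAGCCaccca
HIST1H2AG: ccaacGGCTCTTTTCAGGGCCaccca
HIST1H2BD: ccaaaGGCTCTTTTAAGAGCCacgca
HIST1H4H: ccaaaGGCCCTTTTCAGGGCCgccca

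In the shortest annotated transcript with the stem-loop, 1114 bases followed the stem-loop in HIST1H2AC, 1729 in HIST2H2BE and 1761 in HIST1H2AG, so a transcript running past the stem-loop is annotated for each. In that transcript 39 bases followed it in HIST1H2BD and 18 in HIST1H4H, but HIST1H4H has 4 annotated transcripts, all with the stem-loop, the longest of 2163 bases. Several genes cannot be separated by sequence alone: 25.9% of the 50-base stretches of HIST1H2BK, 13.7% of HIST1H2AM, 37.7% of HIST1H2AI, 19.6% of HIST2H3D and 0% of HIST1H3D were unique among GENCODE transcripts. HIST1H2BK shares most with H2BFS, and all of HIST1H3D is shared with AL031777.3, which overlaps it. The sources used here do not say whether counting used strand, so reads of the 4 genes with an exon overlap on the opposite strand cannot be told from those of their partners.

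Values are normalised reads as the authors deposited them, not divided by gene length. Depth ran from 3.44 to 19.4 M reads in ARCaPM-DR, 10 to 15.89 M in 22Rv1-DR and 8.08 to 16.97 M in DU145-DR. In ARCaPM-DR shGATA2a replicate 3 was shallowest and 1 read was worth 3.887 normalised reads. A gene listed at 0 could still have held 3 reads in a library, a limit that covers counting error only. GATA2 fell in each line (limma, log2 fold change -2.56 ± 0.22 SE in ARCaPM-DR, adjusted p = 8.8e-05, -1.85 ± 0.15 in DU145-DR, adjusted p = 5.5e-05, and -1.71 ± 0.24 in 22Rv1-DR, adjusted p = 0.0256), and its knockdown and control libraries did not overlap, although some of its 22Rv1-DR values were not whole reads. KLK3, a secreted protease of prostate epithelium, stood at 105 ± 14.6 normalised reads (SD, n = 3) in 22Rv1-DR controls and was listed at 0 in the controls of the other lines. These are bulk libraries, in which fewer cells making a transcript and less of it per cell cannot be told apart.

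Control levels of many cluster genes differed between the 3 lines. The share that differed was above that of all genes only between ARCaPM-DR and DU145-DR. In every line taken alone, 23 of the 43 genes reached the minimum for testing. In control libraries HIST1H2BK, an H2B gene, was far higher in DU145-DR than in the others, HIST3H2A was at 0 in DU145-DR, and several HIST1 genes read in ARCaPM-DR were at 0 in another line. Between 22Rv1-DR and DU145-DR controls 27 of the 43 genes, or 62.8%, differed (limma, joint fit of all libraries, adjusted p at most 0.05), 8 higher and 19 lower in 22Rv1-DR, against a background of 70.5% of all genes. Between ARCaPM-DR and DU145-DR 32, or 74.4%, differed, 13 higher and 19 lower in ARCaPM-DR, against 59.9%, and between ARCaPM-DR and 22Rv1-DR 19, or 44.2%, differed, 11 higher and 8 lower in ARCaPM-DR, against 70.3%. The shares of members and of all genes were not tested against each other.

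**Figure D1:**
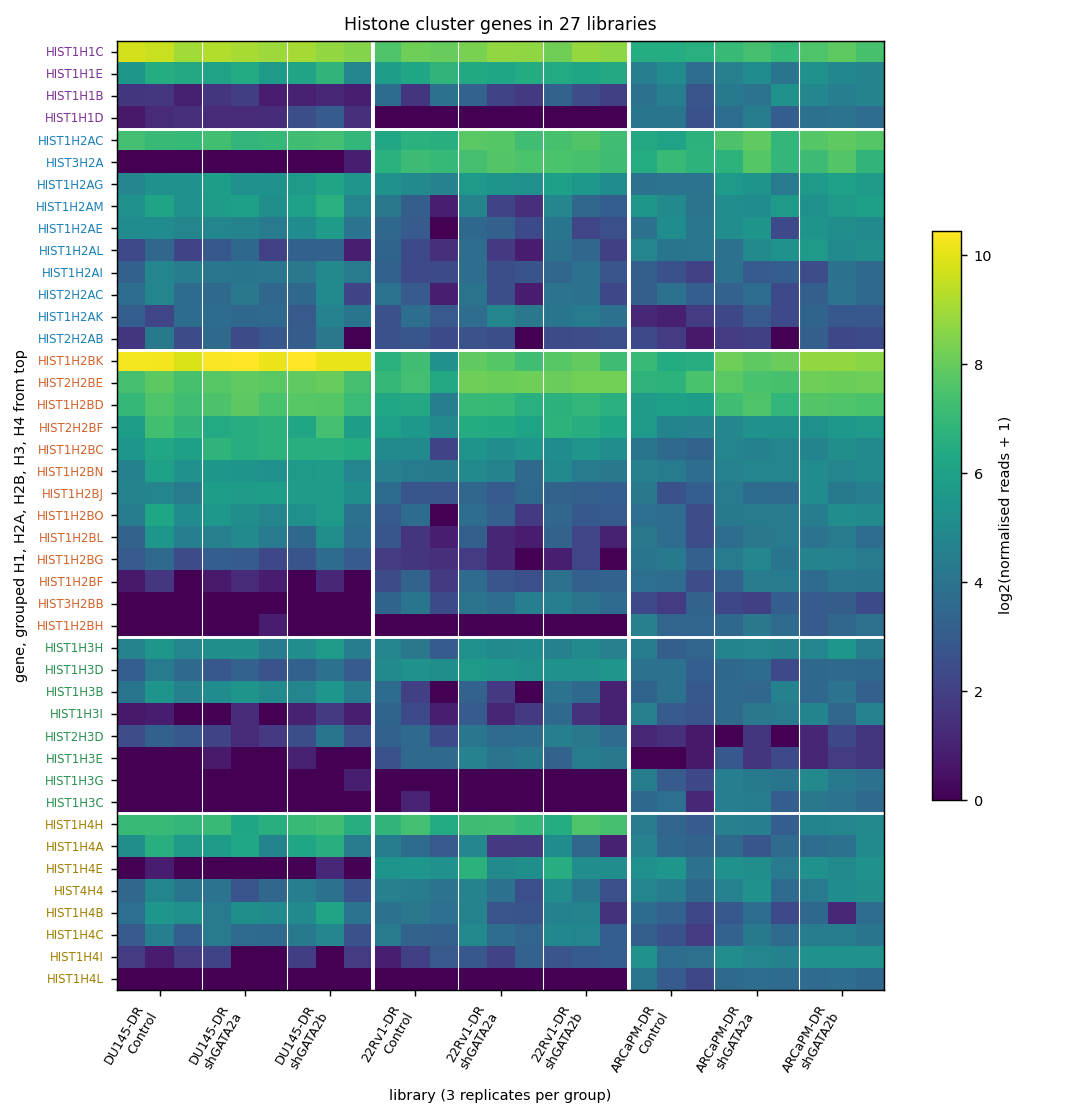
Heat map of log2(normalised reads + 1) for the 43 genes (rows, grouped H1, H2A, H2B, H3, H4 from the top) in the 27 libraries (columns, 3 replicates per group). HIST1H2BK is brightest in the 9 DU145-DR libraries, and HIST3H2A is dark there.

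HIST1H2BK was read at 1284, 1238 and 958 normalised reads in the DU145-DR controls, 102, 153 and 39.1 in 22Rv1-DR and 135, 84.1 and 89.6 in ARCaPM-DR. Every DU145-DR control was thus above every control of the other lines. The log2 difference was -3.74 ± 0.31 for 22Rv1-DR minus DU145-DR (adjusted p = 6.4e-11) and -3.50 ± 0.31 for ARCaPM-DR minus DU145-DR (adjusted p = 3.4e-10). HIST1H2BK made up 64.2% of the reads of all H2B members in DU145-DR controls and 35.8% of the reads of all 43 genes.

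HIST1H1C, which encodes a linker histone made in many somatic tissues, was read at 873, 764 and 509 in DU145-DR controls, 190.1, 285 and 259 in 22Rv1-DR and 88.6, 86.7 and 97.9 in ARCaPM-DR. Its levels fell into 3 steps with no overlap between lines. The log2 difference was -1.53 ± 0.21 for 22Rv1-DR minus DU145-DR (adjusted p = 4.9e-07), -2.93 ± 0.21 for ARCaPM-DR minus DU145-DR (adjusted p = 7.3e-12) and -1.40 ± 0.21 for ARCaPM-DR minus 22Rv1-DR (adjusted p = 1.9e-06). Reads of HIST1H1C were 90.7% of H1 reads in DU145-DR controls, 73.4% in 22Rv1-DR and 65.5% in ARCaPM-DR.

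HIST3H2A, an H2A gene of the HIST3 cluster, was listed at 0 in the 3 DU145-DR controls and at 99.8, 143 and 127 in 22Rv1-DR and 88.6, 134 and 107 in ARCaPM-DR. Against a floor of 3 reads per library it was at least 55.3-fold higher in 22Rv1-DR and at least 49.2-fold higher in ARCaPM-DR. Its divergent neighbour HIST3H2BB, whose start lies 230 bases away, was also at 0 in DU145-DR and stood at 9.46, 15.9 and 4.08 in 22Rv1-DR controls and 3.97, 2.63 and 8.96 in ARCaPM-DR. Both genes of this pair were therefore read in the same lines, HIST3H2BB close to the floor in ARCaPM-DR.

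Among H4 genes, HIST1H4E and HIST1H4H differed in level between lines. HIST1H4E was read at 0, 0.713 and 0 in DU145-DR controls, at 42.1, 43.6 and 38.3 in 22Rv1-DR and at 37, 43.8 and 14.1 in ARCaPM-DR. HIST1H4H was low in a different line, at 132, 135 and 121 in DU145-DR and 114, 161 and 82.3 in 22Rv1-DR but 18.5, 9.64 and 7.04 in ARCaPM-DR. The ARCaPM-DR controls of HIST1H4H lay below all controls of the other lines, with a log2 difference of -3.46 ± 0.37 from DU145-DR (adjusted p = 1.2e-08) and -3.29 ± 0.37 from 22Rv1-DR (adjusted p = 1.7e-08).

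A further 5 genes, chosen after their values were seen, were at 0 in the controls of another line and read in ARCaPM-DR. Folds here set the mean of the ARCaPM-DR controls against 3 reads per library in the other line. On that measure HIST1H2BH was at least 6.23-fold higher in ARCaPM-DR controls than in DU145-DR, HIST1H3G at least 4.59-fold, HIST1H4L at least 3.99-fold and HIST1H3C at least 3.74-fold. They do not bound the spread between ARCaPM-DR libraries, where HIST1H3C went down to 1.28, below its DU145-DR floor of 2.23. HIST1H3G and HIST1H4L went down to 3.84 there. HIST1H1D was at 0 in all 9 22Rv1-DR libraries and at least 4.59-fold higher in ARCaPM-DR controls than there. Over all 9 libraries of a line, 4 of the 43 genes were at 0 in 22Rv1-DR, while DU145-DR had 3 such genes and ARCaPM-DR had 0.

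The summed level of all 43 genes separated knockdown from control libraries in 22Rv1-DR and ARCaPM-DR and not in DU145-DR. These sums are descriptions, with no test, in which the most read genes weigh most, so a higher sum need not mean a rise of every gene. HIST2H2BE, the most read, held 12.5% of the sum in ARCaPM-DR controls, and HIST1H1C 18.5% in 22Rv1-DR controls. In ARCaPM-DR controls the sum was 1198, 1032 and 920.1 normalised reads, against 1724, 1930 and 1508 with shGATA2a and 2237, 2373 and 2134 with shGATA2b. All 6 knockdown libraries were above all 3 controls, with a ratio of means of 1.89. In 22Rv1-DR controls it was 1324, 1561 and 1082, against 2310, 2117 and 1893 with shGATA2a and 2133, 2294 and 1885 with shGATA2b. The groups again did not overlap, and the ratio was 1.59. In DU145-DR controls the sum was 3230, 3751 and 2739, inside which the shGATA2a values of 3482, 3426 and 2900 fell, while shGATA2b ran from 2465 to 3553 and the ratio was 0.992.

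H2B genes made up the largest of the type sums. H2B members summed to 489, 380.2 and 413 in ARCaPM-DR controls, 821, 799 and 754 with shGATA2a and 1118, 1136 and 1071 with shGATA2b, a ratio of 2.22 with a step between every group. In 22Rv1-DR they summed to 456, 531 and 205 in controls, 866, 786 and 696 with shGATA2a and 814, 858 and 705 with shGATA2b, a ratio of 1.98. Control replicate 3 was the low library there, and the ratio was 1.6 without it, still with no overlap. H2A sums did not overlap in either line, with ratios of 1.61 in 22Rv1-DR and 1.78 in ARCaPM-DR. H1 sums did not overlap in ARCaPM-DR (ratio 1.68) and overlapped in 22Rv1-DR (1.41), H3 sums did not overlap in 22Rv1-DR (1.44) and overlapped in ARCaPM-DR (1.62), and H4 sums overlapped in both (1.2 and 1.38).

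**Figure D2:**
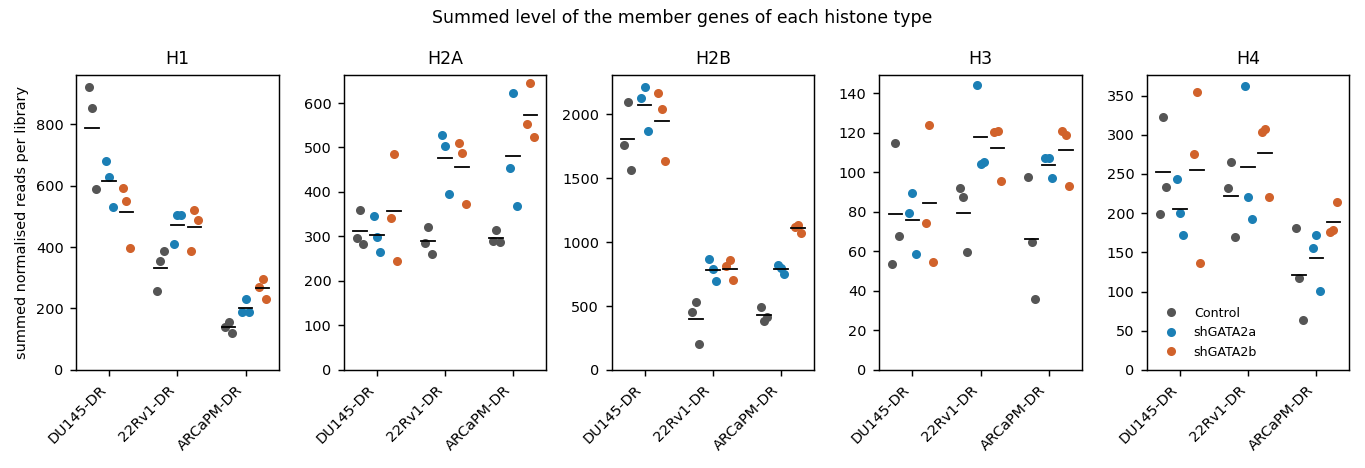
Summed normalised reads of the members of each histone type (panels) in each library (points) by line and hairpin, with the mean of 3 replicates as a bar. H2B knockdown points lie above the control points in 22Rv1-DR and ARCaPM-DR, and H1 points in DU145-DR run lower with the hairpins, with overlap.

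In ARCaPM-DR, 5 H2B genes, 2 H2A genes and 1 gene each of H1, H3 and H4 rose with GATA2 knockdown. The contrast set the mean of both hairpin groups against the control in a limma fit of that line's 9 libraries on log2(value + 1), a scale that understates changes of low genes. Of 38 members tested 10 rose and 0 fell, a share of 26.3%, against a background of 18.5% called in either direction, 9.86% up and 8.62% down among 13079 genes. The fold change was above 0 for 33 of 38, with a median of 0.66 on the log2 scale against -0.00 over all genes and a range from -0.31 to 1.69. By type, 1 of 4 H1, 2 of 8 H2A, 5 of 12 H2B, 1 of 6 H3 and 1 of 8 H4 genes rose, with medians of 0.60, 0.65, 0.73, 0.91 and 0.51. A gene was tested if it reached 10 in 3 or more of the 9 libraries, which knockdown libraries alone could meet. HIST1H4C, the H4 gene, met it only in that way, so counts of low genes may lean towards rises. With the replicate number as a block 16 of 38 (42.1%) rose, against 45% of all genes called in that fit.

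HIST1H2BK had the largest change in this line. It was read at 135, 84.1 and 89.6 in controls, 284, 229 and 268 with shGATA2a and 427, 436 and 381 with shGATA2b. Both hairpins lay above the controls and the second lay above the first, with a log2 fold change of 1.69 ± 0.17 SE (3.24-fold, adjusted p = 0.00021).

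HIST1H2BD, another H2B gene, was read at 54.2, 60.5 and 55 in controls, 149.6, 190.1 and 117 with shGATA2a and 199, 191 and 178 with shGATA2b. No knockdown library overlapped the tight controls, and the log2 fold change was 1.55 ± 0.17 (2.94-fold, adjusted p = 0.00034). HIST1H2BC, also H2B, was read at 15.9, 11.4 and 8.96 in controls, 26.4, 22.9 and 27.2 with shGATA2a and 25.4, 35.1 and 30 with shGATA2b. Its groups did not overlap either, at 1.16 ± 0.26 (adjusted p = 0.0121), but the call was lost without Control replicate 3 (0.98, adjusted p = 0.0611).

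HIST2H2BE, an H2B gene of the HIST2 cluster, was read at 111, 108 and 175 in controls, 219, 176 and 171 with shGATA2a and 279.5, 273 and 284 with shGATA2b. The highest control lay among the shGATA2a values and below all shGATA2b values. The log2 fold change was 0.83 ± 0.18 (adjusted p = 0.0103), and the call was lost without Control replicate 1 (adjusted p = 0.0604). HIST1H2BO, the fifth H2B gene called, was read at 13.2, 12.3 and 4.48 in controls, 17.6, 18.9 and 19.4 with shGATA2a and 20.8, 33.8 and 31.1 with shGATA2b. The groups did not overlap, at 1.24 ± 0.35 (adjusted p = 0.0357), but the call was lost in 7 of the 9 fits that left out 1 library, with adjusted p from 0.0386 to 0.126 over the 9 and a value of 0.80 without Control replicate 3.

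Among H2A genes, HIST1H2AC was read at 79.3, 63.1 and 104 in ARCaPM-DR controls, 186, 237 and 120.5 with shGATA2a and 204, 228 and 206 with shGATA2b. All knockdown libraries were above all controls, the shallow shGATA2a replicate 3 least so, and the log2 fold change was 1.25 ± 0.23 (2.38-fold, adjusted p = 0.00469). HIST1H2AG was read at 14.5, 14.9 and 14.7 in controls, 47.8, 41.8 and 19.4 with shGATA2a and 47.4, 61.4 and 47.6 with shGATA2b. The controls were nearly equal and every knockdown library was higher, at 1.45 ± 0.29 (adjusted p = 0.00799).

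The linker histone gene HIST1H1C was read at 88.6, 86.7 and 97.9 in ARCaPM-DR controls, 135, 163 and 124 with shGATA2a and 191, 231 and 169.8 with shGATA2b. Controls, shGATA2a and shGATA2b formed 3 steps without overlap, and the log2 fold change was 0.86 ± 0.15 (1.81-fold, adjusted p = 0.00469). HIST1H1E, another H1 gene, had a log2 fold change of 0.35 ± 0.34 (adjusted p = 0.508).

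The H3 gene HIST1H3H was read at 19.8, 7.89 and 9.6 in controls, 25.2, 25.9 and 23.3 with shGATA2a and 26.6, 43.9 and 20.7 with shGATA2b, and the H4 gene HIST1H4C at 7.93, 5.26 and 2.56 in controls, 8.8, 17.9 and 11.7 with shGATA2a and 20.8, 20.1 and 15.5 with shGATA2b. Neither overlapped its controls. HIST1H4C reached 10 normalised reads in 5 libraries of this line, all with a hairpin against GATA2. It was thus tested only because of its knockdown values, and its call is no support for a rise of H4 genes. The log2 fold changes were 1.15 ± 0.34 for HIST1H3H (adjusted p = 0.0418) and 1.47 ± 0.38 for HIST1H4C (adjusted p = 0.0242). The HIST1H3H call was lost in 6 of the 9 fits that left out 1 library (adjusted p from 0.0266 to 0.156, the highest without Control replicate 2) and the HIST1H4C call in 3 (from 0.0312 to 0.101). Without Control replicate 3 both were lost, and the line's count of genes that rose was then 6 in place of 10. Other H3 and H4 genes named here were HIST1H3D, at -0.31 ± 0.39 (adjusted p = 0.612), HIST1H4H, at 0.86 ± 0.40 (adjusted p = 0.163), and HIST1H4A, at -0.03.

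**Figure D3:**
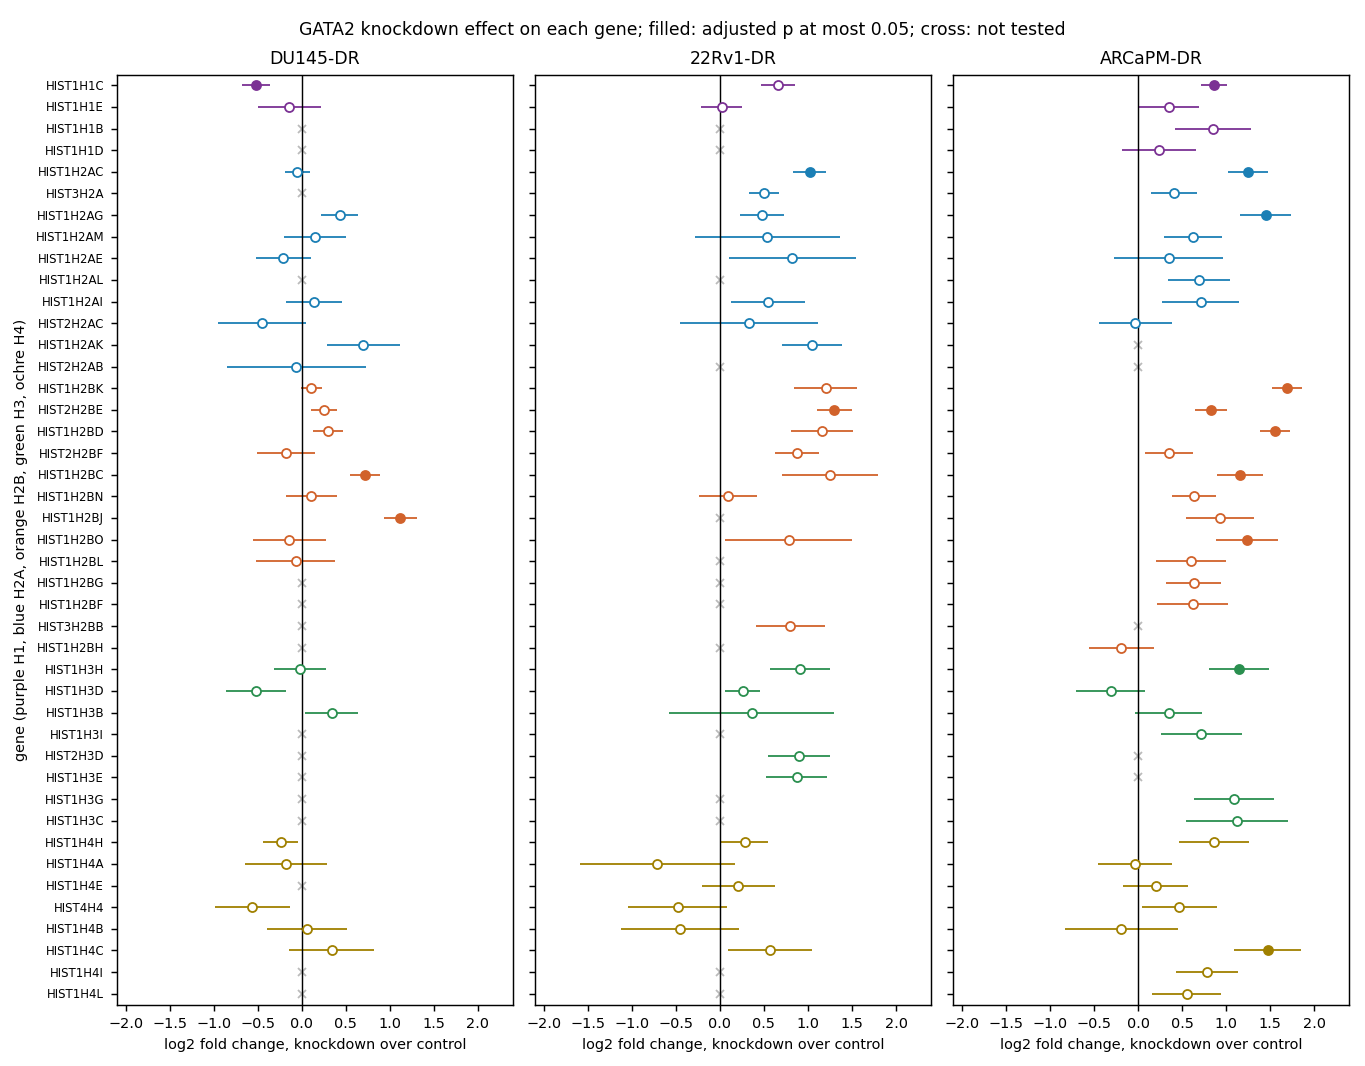
Log2 fold change of knockdown over control (x axis, bars ± 1 SE) for each of the 43 genes (rows) in the 3 lines (panels), filled where the adjusted p was at most 0.05 and a cross where the gene was not tested. In ARCaPM-DR 33 of 38 points and in 22Rv1-DR 26 of 29 lie right of 0, in DU145-DR 13 of 27.

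In 22Rv1-DR, 2 of 29 members rose, HIST2H2BE and HIST1H2AC, and 0 fell. That is 6.9%, against a background of 0.4% called in either direction, 0.124% up and 0.276% down among 13757 genes. The fold change was above 0 for 26 of 29, with a median of 0.57 against -0.02 over all genes. Here too knockdown libraries alone could meet the minimum for testing, so counts and medians of low genes may lean towards rises. HIST1H2AI, with a control mean of 5.5, a lowest library of 3.97 and 3 libraries at 10 or more, met it only in that way. Medians by type were 0.34 over 2 H1, 0.55 over 8 H2A, 1.01 over 8 H2B, 0.87 over 5 H3 and -0.12 over 6 H4 genes. Without Control replicate 3, which was low for many H2B genes, 21 of 29 were above 0, the median over members was 0.31 and the H2B median was 0.45.

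HIST2H2BE was read at 122, 158 and 79.1 in 22Rv1-DR controls, 281, 278 and 286 with shGATA2a and 265, 295 and 302 with shGATA2b. The 6 knockdown libraries lay close together and far above the controls, with a log2 fold change of 1.30 ± 0.20 (2.46-fold, adjusted p = 0.0281). HIST1H2AC was read at 74.8, 100.2 and 92.1 in controls, 221, 207 and 150.2 with shGATA2a and 170.1, 196 and 149.6 with shGATA2b. Its groups did not overlap, at 1.02 ± 0.19 (2.03-fold, adjusted p = 0.0478). The HIST1H2AC call was lost when any 1 of the 9 libraries was left out, and the HIST2H2BE call was kept only without Control replicate 3 (1.03, adjusted p = 0.0278), while over all genes such fits called from 0 to 37 genes in place of 55.

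Same-numbered libraries deviated together in this line. With the replicate number as a block 4 of 29 members (13.8%) rose, against 1.21% of all genes called in that fit: HIST2H2BE (adjusted p = 0.0195), HIST1H2AC (0.0241), HIST1H1C (0.66, adjusted p = 0.0182 against 0.308 without the block) and HIST2H2BF (0.87, adjusted p = 0.0469 against 0.289). HIST1H1C was read at 190.1, 285 and 259 in controls, 321, 428 and 418 with shGATA2a and 294, 446 and 409 with shGATA2b. All its knockdown libraries lay above all controls.

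Other H2B genes of 22Rv1-DR had positive values with wide errors and no call. HIST1H2BK was read at 102, 153 and 39.1 in controls, 236, 208 and 153 with shGATA2a and 212, 244 and 148 with shGATA2b. The highest control reached the lowest knockdown libraries, and the log2 fold change was 1.20 ± 0.36 (adjusted p = 0.316), or 0.65 without Control replicate 3. HIST1H2BD was at 74, 77.4 and 21.2 in controls, 131, 126 and 97.7 with shGATA2a and 104, 119.9 and 98.4 with shGATA2b. It did not overlap, at 1.16 ± 0.35 (adjusted p = 0.327), or 0.56 without Control replicate 3. HIST1H2BC, at 1.25 ± 0.54 (adjusted p = 0.473), came to 0.28 without that library, in which it was read at 3.26 against 31 and 30.8 in the other controls.

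The H3 and H4 genes of 22Rv1-DR gave no call. HIST1H3H stood at 0.91 ± 0.34 (adjusted p = 0.42), HIST1H3D at 0.26 ± 0.20 (adjusted p = 0.64), HIST1H4H at 0.28 ± 0.27 (adjusted p = 0.7), HIST1H4C at 0.57 ± 0.48 (adjusted p = 0.67) and HIST1H4A at -0.71 ± 0.88 (adjusted p = 0.772). HIST3H2A was read at 99.8, 143 and 127 in controls, 166, 199 and 177 with shGATA2a and 178, 170.4 and 148 with shGATA2b. Every knockdown library was above every control, by 0.50 ± 0.17 on the log2 scale (adjusted p = 0.381).

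In DU145-DR, where the summed level was highest, 2 of 27 members rose and 1 fell. That is 11.1%, against a background of 16.7% in either direction, 8.72% up and 7.98% down among 13362 genes. The fold change was above 0 for 13 of 27, with a median of -0.02. Both genes that rose were H2B genes of the HIST1 cluster and the gene that fell was HIST1H1C. Medians by type were -0.33 over 2 H1, 0.05 over 8 H2A, 0.11 over 9 H2B, -0.02 over 3 H3 and -0.18 over 5 H4 genes.

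HIST1H2BJ was read at 24.8, 26.4 and 18.2 in DU145-DR controls, 56.9, 53.3 and 54.7 with shGATA2a and 53, 54.3 and 36.2 with shGATA2b. All knockdown libraries were above all controls, and the log2 fold change was 1.12 ± 0.19 (2.18-fold, adjusted p = 0.00296). HIST1H2BC was read at 43.7, 74.9 and 60.5 in controls, 110.4, 90.7 and 103 with shGATA2a and 95.8, 96.6 and 86.3 with shGATA2b. Its groups did not overlap, at 0.72 ± 0.17 (adjusted p = 0.0126), and the call was lost without Control replicate 1 (0.52, adjusted p = 0.0838).

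HIST1H1C was read at 873, 764 and 509 in DU145-DR controls, 614, 539.9 and 479 with shGATA2a and 521, 429.7 and 368 with shGATA2b. The lowest control lay among the knockdown libraries, and the log2 fold change was -0.52 ± 0.16 (adjusted p = 0.0429). The call was lost in 6 of the 9 fits that left out 1 library, among them that without Control replicate 1 (-0.36, adjusted p = 0.217). With the replicate block, which the pairing of this line's libraries allows, it held (adjusted p = 1.8e-05), and HIST1H2BD, at 0.30, was also called (adjusted p = 0.0395 against 0.243). That fit called 38.8% of all genes and 4 of 27 members, or 14.8%.

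HIST1H2BK, which held most of the H2B reads, did not pass the test in DU145-DR. It was read at 1284, 1238 and 958 in controls, 1359, 1399 and 1134 with shGATA2a and 1400, 1107 and 1091 with shGATA2b. The groups overlapped, with a log2 fold change of 0.11 ± 0.12 (adjusted p = 0.57). HIST1H2AC, at -0.05 ± 0.14 (adjusted p = 0.856), and HIST2H2BE, at 0.25 ± 0.15 (adjusted p = 0.278), also overlapped their controls.

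**Figure D4:**
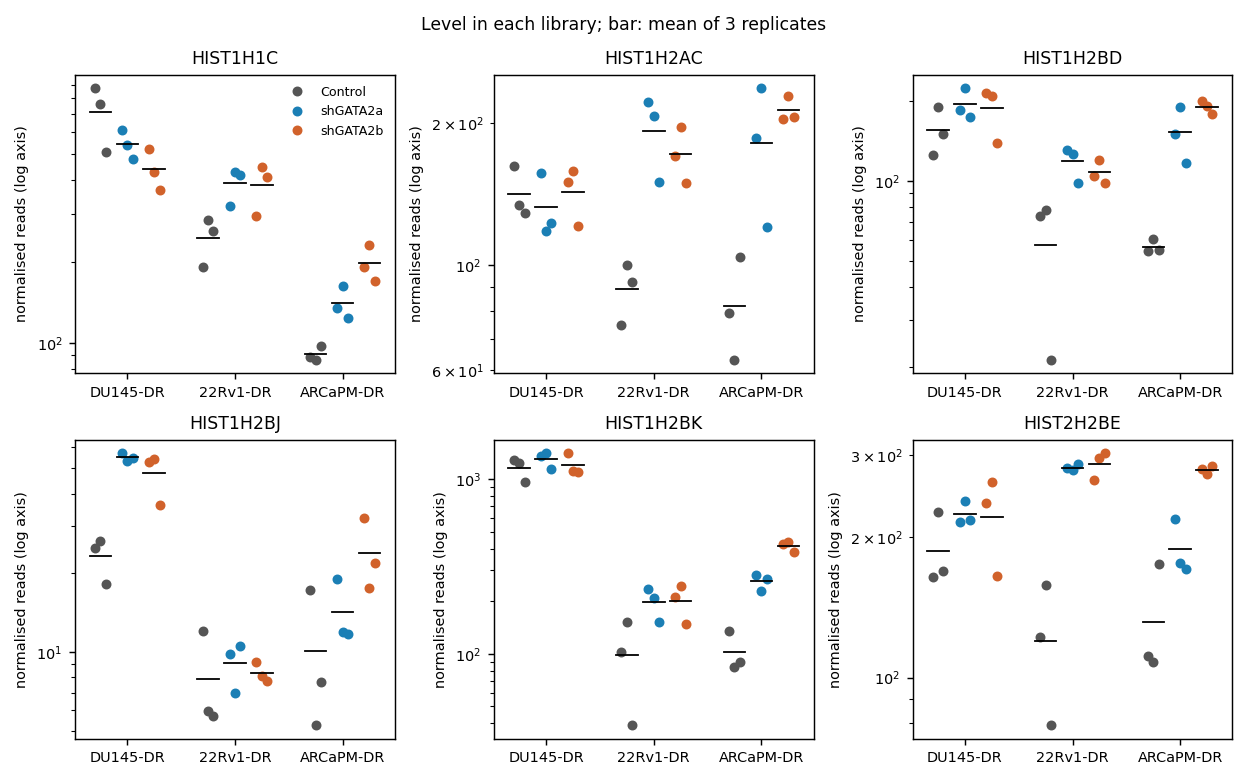
Normalised reads (log axis) of 6 genes in each library (points) by line and hairpin, with the mean of 3 replicates as a bar. HIST1H1C is lower with the hairpins in DU145-DR and higher in the other lines, and HIST1H2BK rises from a low control level in ARCaPM-DR while DU145-DR stays near 1000 in every group.

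Counting genes whose 6 knockdown libraries all lay above the 3 controls gave 10 of 38 members (26.3%) in ARCaPM-DR against 11% of all genes tested, 8 of 29 (27.6%) in 22Rv1-DR against 2.9%, and 2 of 27 (7.41%) in DU145-DR against 10%. No tested member had all 6 knockdown libraries below the controls in any line, against 10% of genes in ARCaPM-DR, 4.04% in 22Rv1-DR and 8.74% in DU145-DR. The ARCaPM-DR count above the controls includes HIST1H4C, which met the minimum for testing only through knockdown libraries. In the other lines too knockdown libraries alone could meet that minimum, so these counts may lean towards rises.

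The hairpins were also set against the control one at a time. They share the control libraries, so their values are given side by side only. In ARCaPM-DR shGATA2a called 5 members up and 0 down against a background of 12.8% of genes in either direction, 7.2% up and 5.63% down, and shGATA2b called 9 up and 0 down against 14.5%, 7.28% and 7.21%. HIST1H2BK changed by 1.36 (adjusted p = 0.00191) with shGATA2a and 2.03 (adjusted p = 0.00025) with shGATA2b. HIST1H2BD changed by 1.38 (adjusted p = 0.00182) and 1.72 (adjusted p = 0.00061), and HIST1H1C by 0.61 (adjusted p = 0.0498) and 1.10 (adjusted p = 0.00357). The medians over 38 members were 0.56 and 0.78. Directly compared, shGATA2b minus shGATA2a gave 0 calls among members, against 0.803% of all genes, with 30 of 38 differences above 0, a median of 0.29 and 0.67 ± 0.19 for HIST1H2BK (adjusted p = 0.176).

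In DU145-DR shGATA2a called HIST1H2BC (0.78, adjusted p = 0.0179) and HIST1H2BJ (1.23, adjusted p = 0.00418) up, against a background of 16.1% of genes in either direction, 8.28% up and 7.78% down. With shGATA2b only HIST1H2BJ was called (1.01, adjusted p = 0.0228), HIST1H2BC stood at 0.66 (adjusted p = 0.0634) and HIST1H1C at -0.68 (adjusted p = 0.0508), against a background of 5.81%, 3.29% up and 2.52% down. With the replicate block 3 members, HIST1H1C, HIST1H2BC and HIST1H2BJ, were called with both hairpins, in place of 1, in fits that called 38.1% of all genes for shGATA2a and 26.3% for shGATA2b. In 22Rv1-DR no member was called with a single hairpin, against backgrounds of 0% and 0.00727%, and HIST2H2BE stood at 1.28 (adjusted p = 0.0972) with shGATA2a and 1.31 (adjusted p = 0.0863) with shGATA2b. With the replicate block shGATA2a called HIST1H1C (0.68, adjusted p = 0.0458) and HIST1H2AC (1.10, adjusted p = 0.0464), against 0.603% of all genes, and shGATA2b called 0 members, against 0.48%.

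Whether the knockdown effect differed between lines was tested in the joint fit of all 27 libraries. By the F test over the 3 lines, 4 of 43 members differed, HIST1H1C, HIST1H2AC, HIST1H2BK and HIST2H2BE, a share of 9.3% against a background of 7%. HIST1H1C differed by 1.18 ± 0.26 between 22Rv1-DR and DU145-DR (adjusted p = 0.0209) and by 1.38 ± 0.26 between ARCaPM-DR and DU145-DR (adjusted p = 0.0012). HIST1H2AC differed by 1.30 ± 0.28 (adjusted p = 0.00496) and HIST1H2BK by 1.59 ± 0.37 (adjusted p = 0.00986) between ARCaPM-DR and DU145-DR, and HIST1H2BD by 1.25 ± 0.39 (adjusted p = 0.05). In all, ARCaPM-DR differed from DU145-DR in 4 members, all higher, against 7.13% of genes in either direction, 3.71% up and 3.41% down. The pair 22Rv1-DR and DU145-DR differed in 1, HIST1H1C, against 1.09%, 0.464% of genes being higher in 22Rv1-DR. No member differed between ARCaPM-DR and 22Rv1-DR, against 3.39%, 2.19% of genes being higher in ARCaPM-DR, so the larger number of calls in ARCaPM-DR than in 22Rv1-DR is not shown to be a larger effect.

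Averaged over the 3 lines in that fit, 12 of 43 members rose and 0 fell, 27.9% against a background of 18.4% in either direction and 9.06% up. The fold change was above 0 for 36 of 43, with a median of 0.32 against -0.01 over all genes. HIST2H2BE (0.79, adjusted p = 1.4e-05), HIST1H2BK (1.0, adjusted p = 5.1e-05), HIST1H2AC (0.74, adjusted p = 5.7e-05) and HIST1H2BD (1.0, adjusted p = 7.7e-05) had the smallest adjusted p. Chosen after their values were seen, HIST1H2AK, at 1.07 (adjusted p = 0.00093), and HIST1H3E, at 0.93 (adjusted p = 0.00161), also rose on average, although both were too low in ARCaPM-DR, and HIST1H3E also in DU145-DR, to be tested in the fit of that line alone. Neither was called in the line fits that tested it. By type 1 of 4 H1, 3 of 10 H2A, 5 of 13 H2B, 2 of 8 H3 and 1 of 8 H4 genes rose.

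Genes with polyadenylated transcripts in earlier descriptions were compared with the rest, because library selection can treat the 2 kinds differently. The list was drawn from general knowledge of these genes, with results of these data known, and held 9 of the 43. In ARCaPM-DR 9 of these were tested, 6 rose and the median was 0.93, against 4 of 29 and 0.62 for the other members. In 22Rv1-DR 2 of 8 rose with a median of 1.09, against 0 of 21 and 0.54, and in DU145-DR 2 of 8 rose and 1 fell with a median of 0.18, against 0 of 19 and -0.06. In each line the listed genes had the higher median, a difference that was not tested. The most read members of ARCaPM-DR were on the list, from HIST1H2BK with 1949 reads in 9 libraries to HIST1H2BD with 1032. The listed HIST1H2BC, HIST1H2BJ and HIST4H4 had 169, 124 and 197. List and level were therefore not separated. Other RNAs without a poly(A) tail, such as small Cajal body RNAs, gave 1 call up and 0 down among 8 tested in ARCaPM-DR (SCARNA9, 0.89), with a median of 0.42, and 0 calls in 22Rv1-DR and DU145-DR, with medians of 0.36 and 0.09. Their summed level ran from 282 to 620 in ARCaPM-DR controls and from 463 to 768 in knockdown libraries, and from 416 to 675 and from 252 to 3199 in 22Rv1-DR. The part of RNA selection in the histone changes was not tested.

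Among the members 6 pairs, each an H2A and an H2B gene, start within 194 to 248 bases of each other on opposite strands by the RefSeq promoters. HIST1H2BJ and HIST1H2AG start 248 bases apart, and HIST1H2BJ rose in DU145-DR (1.12) where HIST1H2AG stood at 0.43 ± 0.21 (adjusted p = 0.169). In ARCaPM-DR HIST1H2AG rose (1.45) and HIST1H2BJ, read at 17.2, 5.26 and 7.68 in controls and from 11.7 to 32.3 with the hairpins, stood at 0.93 ± 0.39 (adjusted p = 0.125). HIST2H2BE, which rose in 22Rv1-DR and ARCaPM-DR, starts 236 bases from HIST2H2AC, which stood at 0.33 and -0.03 there. Differences between the genes of a pair were not tested.

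Genes that make, process and use histone mRNA were read beside the cluster genes. SLBP, the stem-loop binding protein, was at 912, 722 and 915 in ARCaPM-DR controls, 384, 342 and 513 with shGATA2a and 424, 369.8 and 462 with shGATA2b. Its knockdown libraries were all below the controls, with a log2 fold change of -1.03 ± 0.15 (adjusted p = 0.00168). In 22Rv1-DR it was at 1558, 1124 and 1475 in controls, 812, 838 and 945 with shGATA2a and 949.9, 941 and 957 with shGATA2b. These too did not overlap, at -0.60 ± 0.14, but the test was not passed (adjusted p = 0.17). In DU145-DR SLBP stood at -0.05 ± 0.07 (adjusted p = 0.698). NPAT did not pass the test in any line, at 0.14 in ARCaPM-DR, 0.32 in 22Rv1-DR and -0.04 in DU145-DR.

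Of 15 genes of histone transcription and 3′ end processing, 3 rose and 1 fell in DU145-DR (LSM11 0.52, CSTF2 0.39 and NFYA 0.31 up, NFYC -0.32), 0 changed in 22Rv1-DR and SLBP alone fell in ARCaPM-DR, with medians of -0.03, 0.09 and 0.12. Of 10 histone mRNA decay genes, 2 rose (EXOSC10 0.39, DCP2 0.60) and 2 fell (ZCCHC6 -0.33, DCP1A -0.36) in DU145-DR, 0 changed in 22Rv1-DR, and PNRC2 rose in ARCaPM-DR (1.21 ± 0.14, adjusted p = 0.00053). Of 19 histone chaperone genes, ASF1A, which hands H3 and H4 to assembly factors, rose in DU145-DR (0.40, adjusted p = 0.0153) and in ARCaPM-DR (0.97 ± 0.15, adjusted p = 0.00215). HJURP, the chaperone of the centromeric H3, fell in ARCaPM-DR (-0.64, adjusted p = 0.00105), and CABIN1 fell in DU145-DR (-0.62) and ARCaPM-DR (-0.48). In all 1 rose and 2 fell in DU145-DR, 1 rose and 3 fell in ARCaPM-DR and 0 changed in 22Rv1-DR, with medians of 0.05, -0.16 and -0.18.

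Replication-independent histone genes lie outside the clusters and are made through the cell cycle. Of 10 tested in DU145-DR, H3F3B rose (0.54, adjusted p = 0.00137) and H2AFY2 (-0.27) and H1F0 (-0.36) fell. Of 9 tested in 22Rv1-DR 0 changed, and of 10 tested in ARCaPM-DR 0 rose while H2AFY (-0.63, adjusted p = 0.0032) and H2AFY2 (-0.45) fell. Their medians were -0.03, -0.07 and -0.25, so in the lines where cluster genes had positive medians these did not.

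S phase and mitosis genes had negative medians in 22Rv1-DR and ARCaPM-DR. Of 44 DNA replication and S phase genes, 0 rose and 8 fell in ARCaPM-DR, among them SLBP, which this list shares with that of 3′ end processing, PCNA, the replication clamp (-0.93), and TYMS (-0.64), with a list median of -0.16. In 22Rv1-DR 0 passed the test and the median was -0.35, with 4 of 44 above 0, and in DU145-DR 2 rose and 1 fell with a median of -0.04. Of 40 mitosis genes 1 rose and 8 fell in ARCaPM-DR, 0 rose and 4 fell in 22Rv1-DR (CDK1 -0.91, CENPF -1.11, NUSAP1 -1.0, PTTG1 -0.86), and 10 rose and 2 fell in DU145-DR, with medians of -0.16, -0.36 and 0.09. Over all genes 9.86% rose and 8.62% fell in ARCaPM-DR, 0.124% and 0.276% in 22Rv1-DR and 8.72% and 7.98% in DU145-DR. Neither list was tested against these shares. Summed S phase levels ran from 41322 to 57237 in ARCaPM-DR controls and 35090 to 43764 in knockdown libraries, and from 20652 to 29722 and 15398 to 22303 in 22Rv1-DR. Summed mitosis levels in ARCaPM-DR split by hairpin. They were 108217, 91421 and 97912 in controls, 111744, 93195 and 124639 with shGATA2a and 80618, 76719 and 88153 with shGATA2b. Only the shGATA2b libraries lay below all controls. Cell cycle phase was not measured, and its part in the histone levels was not tested.

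**Figure D5:**
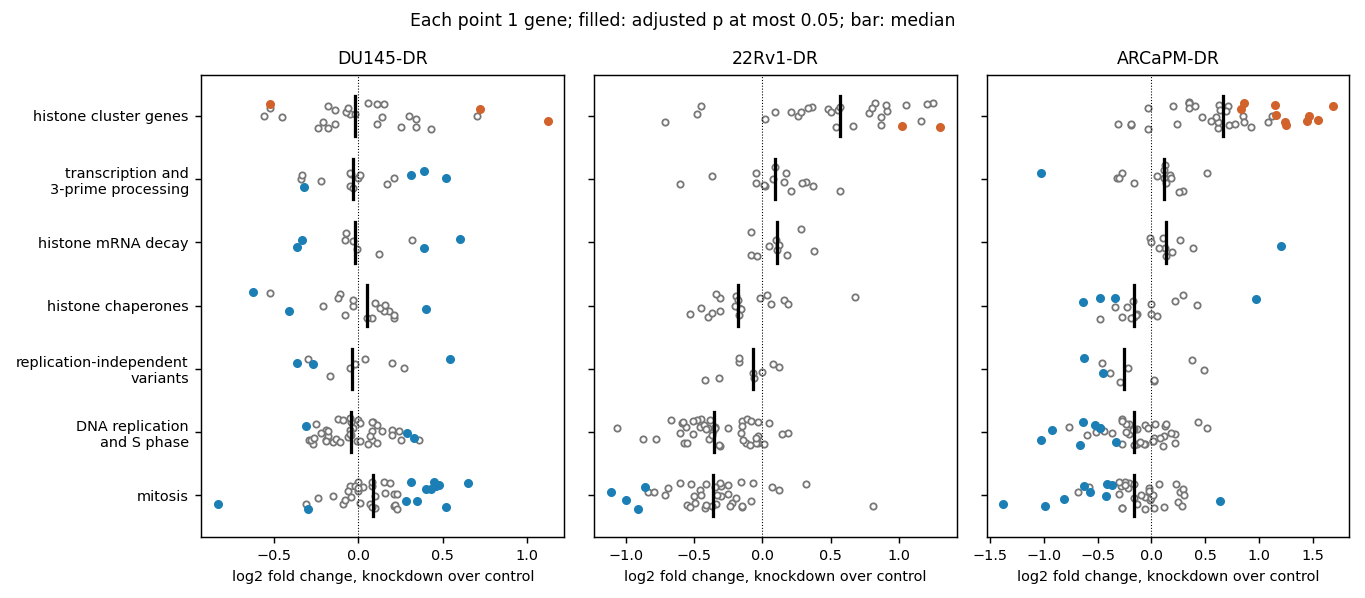
Log2 fold change of knockdown over control (x axis) for the tested histone cluster genes and 6 lists of related genes (rows) in the 3 lines (panels), each point 1 gene, filled where the adjusted p was at most 0.05, with the list median as a bar. In ARCaPM-DR and 22Rv1-DR the cluster gene bar (0.66 and 0.57) lies to the right of the S phase bar (-0.16 and -0.35), and in DU145-DR both lie near 0.

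Markers of other cell types were read in the same libraries. Of 6 blood cell markers 1 was tested in 22Rv1-DR and 0 in the other lines, 0 passed the test, and their summed level ran from 2.79 to 26.1 over all libraries. Of 5 endothelial markers KDR (1.34) and ROBO4 (1.46) rose in DU145-DR, with a summed level of 10.4 to 13.5 in controls and 22.9 to 52.1 in knockdown libraries, and in ARCaPM-DR the sum was 44.9 to 154 and 5.18 to 62.7. Of 6 fibroblast markers COL1A1 fell in DU145-DR (-0.74) and COL3A1 rose in ARCaPM-DR (2.01), where the sum was 2368 to 4777 in controls and 5691 to 14933 in knockdown libraries. In 22Rv1-DR 0 of 3 fibroblast markers tested passed, and their sum was 4306 in Control replicate 3, the library low in H2B genes, 1387 and 1520 in the other controls and 1300 to 1994 in knockdown libraries. Their part in the histone changes was not tested.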

How the data were processed

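Libraries made from RNA that the labels class as total RNA, with no word on selection, of 3 cell lines, 3 hairpin groups and 3 replicates were read from the table that the authors deposited. Per the submitters' processing notes TopHat2 2.0.9 and Cufflinks 1.3.0 were used with hg19 (GRCh37). The sources used here do not give the counting and scaling steps. The deposited signal is a normalised coverage value per gene: 99.954% of 433407 values above 0 were whole multiples of 1 step per library (tolerance 0.005 reads), and 199 values in 58 genes, no member among them (0), were not. Whole reads were recovered from these steps for the depth and the count tests. Since the values are scaled and not raw counts, limma on the log scale was the main test.

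limma 3.58.1 (R 4.3.3) was fitted, with a trend of variance on level, to log2(value + 1), per line on genes that reached 10 in 3 or more of its 9 libraries, and in 1 joint fit of 27 libraries. Adjusted p-values are Benjamini-Hochberg over all genes tested, and a call is an adjusted p of at most 0.05. The code was tested on simulated data.

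The members and lists were chosen with earlier results of these data known. Named members are those called in a line or by the F test and the 2 most read of each type; genes with near-identical copies are named for that. From other lists up to 4 genes with the smallest adjusted p per line are named, with NPAT and SLBP.

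Replicate numbers were checked for pairing by correlating deviations from group means over the 9 same-numbered pairs of a line. The lowest was 0.28 in DU145-DR and 0.21 in 22Rv1-DR, which pairs those samples from the data and not from the labels. In ARCaPM-DR the lowest was 0.06, so its samples were not taken as paired. The median was highest in ARCaPM-DR, at 0.58 against 0.39 in DU145-DR and 0.41 in 22Rv1-DR. Whether ARCaPM-DR libraries are paired is therefore undecided. Alternatives were another pseudocount, other filters, quantile scaling, size factors by median of ratios, a fit without the trend, the replicate block, the joint fit, edgeR 4.0.16 and DESeq2 1.42.0 on recovered reads, leaving out the 58 genes, and leaving out each library. Promoters are RefSeq's and transcripts GENCODE v29's on GRCh38, used for sequence only. GATA2 was the check of the target.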

Additional observations from a re-analysis of the deposited data

Results flagged for a closer look

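For 4 of the 43 histone cluster genes the effect of GATA2 knockdown differed between the 3 lines by the F test of the joint limma fit. HIST1H1C differed at an adjusted p of 0.00175, being lower with the hairpins in DU145-DR and higher in the other lines. HIST1H2AC differed at an adjusted p of 0.00825 and HIST1H2BK at 0.0212, both with log2 fold changes near 0 in DU145-DR. HIST2H2BE differed at an adjusted p of 0.0431. The background was 7% of all genes, and without Control replicate 1 or Control replicate 2 of DU145-DR 2 members differed in place of 4.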

How the results depend on the processing

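edgeR and DESeq2 called the same members as limma for the knockdown contrast in each line: 10 in ARCaPM-DR, 2 in 22Rv1-DR and 3 in DU145-DR. Leaving out 1 library gave 6 to 10 up and 0 down in ARCaPM-DR, 0 to 1 up and 0 down in 22Rv1-DR, and 1 to 2 up and 0 to 1 down in DU145-DR, while such fits called 9.04% to 27.2%, 0% to 0.27% and 6.43% to 18.3% of all genes. Members called with both hairpins were then 2 to 4, 0 and 0 to 2 in these lines, and called between hairpins 0 in each line. The F test then called 2 to 5 members, the average knockdown 9 to 12 up and 0 down, and control libraries 21 to 27 (22Rv1-DR minus DU145-DR), 27 to 32 and 16 to 21. All-gene shares are not given for these counts.

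The joint fit called 1 member up and 0 down in DU145-DR, or 2.33%, against 4.25% of all genes, 1.99% up. It called 4 up in 22Rv1-DR, or 9.3%, against 1.46%, 0.549% up, and 13 up in ARCaPM-DR, or 30.2%, against 18.8%, 10.1% up. With no filter, or with no trend, 0 fell in DU145-DR. In 22Rv1-DR 1 rose with no filter, 0 with no trend and 0 without the 58 genes not in whole reads. No filter gave 3 members with both hairpins in ARCaPM-DR, and DESeq2 gave 1 between hairpins there and 2 with both hairpins in each of the other lines. The filter of 50 left 6, 9 and 12 members to test in ARCaPM-DR, 22Rv1-DR and DU145-DR, of which 5 rose in ARCaPM-DR, and 11, 13 and 5 differed between controls, fewer because fewer were tested. With the replicate block 4 rose in 22Rv1-DR, where 1.21% of all genes were called, and 16 of 38 (42.1%) in ARCaPM-DR, where 45% were (39.9% with shGATA2a, 40.4% with shGATA2b). In that fit 10 in ARCaPM-DR and 3 in DU145-DR were called with both hairpins, 2 between the hairpins of ARCaPM-DR, and 7 by the F test. All-gene shares are not given for these last counts, nor for the other alternatives of this paragraph apart from the joint fit. Such counts are no result about these genes in particular. By their numbers 9 of 9 libraries correlated best with their own in DU145-DR and 22Rv1-DR and 7 of 9 in ARCaPM-DR. Where no construction shows it, the cause was not tested.

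Of 888 alternative values of named members, 796 kept direction and call, 56 lost a call, 9 gained one and 27 changed sign, none of them called. HIST1H1E in 22Rv1-DR was -0.00 with edgeR and -0.02 with DESeq2, and HIST1H4A there 0.00 with edgeR. Quantile normalisation gave 0.01 for HIST1H2AC and 0.07 for HIST1H3H in DU145-DR. Without 1 library HIST1H1E ran from -0.41 to 0.15 in DU145-DR and -0.20 to 0.31 in 22Rv1-DR, HIST1H2AC from -0.11 to 0.06, HIST1H2BK from -0.02 to 0.19, HIST1H2BO from -0.54 to 0.33, HIST1H3H from -0.18 to 0.25 and HIST1H4A from -0.49 to 0.20 in DU145-DR, HIST1H2BO from -0.33 to 1.15 in 22Rv1-DR and HIST1H4A from -0.29 to 0.37 in ARCaPM-DR. ARCaPM-DR shGATA2a replicate 3, at 3.44 M reads, resolves low genes least.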
